A study of Mus musculus with 18 samples.

Results

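The regions described here are 18562 places in the mouse genome where TBR1 chromatin immunoprecipitation gave a peak in both replicates, but which are missing from the list in which replicate 2 was set against its negative control. They were chosen by the coordinates of 3 deposited peak lists. The replicate 1 list is called an input list after its name only: the replicate 1 list named for the negative control holds the same values, so which control stands behind them cannot be told. A member is a region of the replicate 1 input list on chromosomes 1 to 19 that shares at least 1 bp with a region of the replicate 2 input list and none with a region of the replicate 2 negative-control list. The replicate 1 input list holds 34988 regions, of which 34587 lie on chromosomes 1 to 19. Of these, 29142 were replicated, and the members are 63.7% of the replicated regions. With only regions of a −log10 q of at least 10 in both input lists there were 3249 members, 26.4% of the replicated regions. The other 10580 replicated regions are in the negative-control list, and 5445 replicate 1 regions had no partner in replicate 2. In both replicates the members were lower and narrower, by their medians, than the other replicated regions, and they were spread over all 19 autosomes in near proportion to the replicated regions.

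TBR1 is a T-box transcription factor of early-born glutamatergic neurons of the cortex, above all the corticothalamic neurons of layer 6 and the subplate. It is known for holding down genes of the layer 5 subcerebral fate and for acting on genes such as Reln, which encodes a secreted guidance protein. T-box proteins bind DNA through a conserved domain. Chromatin immunoprecipitation followed by sequencing (ChIP-seq) pulls down sheared chromatin with an antibody, and a peak is a place where more fragments pile up than a background predicts. An input is sheared chromatin that saw no antibody. A blocking peptide occupies the antibody, so that a pull-down in its presence shows what is recovered without free antibody.

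All ChIP samples were made from cortex of wild-type mice of the outbred strain CD1 at postnatal day 2. The 2 TBR1 pull-downs, made with the same antibody product, were each paired with an input and with a negative control. Whether the replicates came from separate animals is not stated in the labels. The control of replicate 1 was rabbit IgG. For replicate 2 the title of the control says IgG, whereas its antibody label and description name a TBR1 blocking peptide. The tissue was whole cortex, so a place bound in fewer cells and a place bound more weakly in each cell cannot be told apart. The RNA samples of the series were not used here, because linking regions to genes needs gene positions in the build of the peak lists, mm9. For the same reason the genes, exons and sequences at these regions were not analysed here.

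Each list gives, per summit, a fold enrichment over the peak caller's background. With 1 list per replicate and control, and with the lists themselves having chosen the members, the values below are descriptions without a test. The fold enrichments of an input list were whole multiples of 1 step, 0.175 in replicate 1 and 0.181 in replicate 2, to within 3.40e-05 of a whole number. This gives the pileup at each summit, the number of overlapping fragments, once the 1 fragment that MACS2 adds to both terms is taken off. The uniform background came to 4.72 fragments in replicate 1 and 4.52 fragments in replicate 2. Recomputed from these whole pileups and the single background by a Poisson distribution, the −log10 p differed from the deposited one by at most 1.52e-05 over 39742 summits of replicate 1 and by at most 1.34e-05 over 43504 summits of replicate 2. Each input list thus carried 1 background value at every place.

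The replicate 2 negative-control list followed from the same pileup. At 8953 of its 11665 summits it named exactly the same base as the replicate 2 input list. At every one of these summits the negative-control fold was 0.771 times the input fold plus 0.229, with a largest departure of 1.44e-05. The same line results when the ChIP pileup and its own background are both multiplied by 0.379, which lowers the background from 4.52 to 1.71 fragments. With these scaled pileups rounded down, the −log10 p of all 11665 summits was recovered to within 3.70e-05. No summit of the list thus carried a value specific to the control at that place. The plot of the same summits in both replicate 2 lists shows this line.

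**Figure D1:**
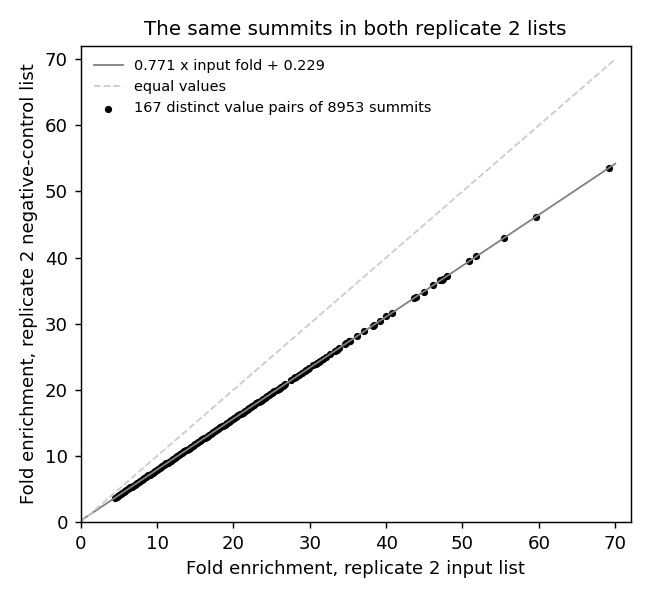
Fold enrichment of the 8953 summits that both replicate 2 lists place at the same base, input list on the horizontal axis and negative-control list on the vertical axis. Points are the 167 distinct value pairs, the solid line is 0.771 times the input fold plus 0.229, the dashed line marks equal values, and every point lies on the solid line.

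The replicate 1 lists gave no second reading of the members. All 39756 rows of the list against input and of the list against the negative control were equal in position, score, fold enrichment, −log10 p, −log10 q and summit, and differed in peak names only. So 18562 of 18562 members and 10580 of 10580 other replicated regions had a region in the replicate 1 negative-control list, with the same values. That share of 100% follows from the equal lists and says nothing of the IgG control. Whether each of the 2 files holds the comparison it is named for cannot be told from their values. Absence from the replicate 2 list is accordingly described below by the height and the breadth of the ChIP pileup.

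Members were the lower regions of the replicated set. In replicate 2 their summit fold had a median of 4.53 (quartiles 3.99 and 5.25), against 7.07 (quartiles 6.16 and 8.70) for the other replicated regions. As pileups, the medians were 24 and 38 fragments. The 2 sets overlapped: 304 members, or 1.64%, were above the median of the other regions. Those of the 304 above 45 fragments all belong to 372 members, described below, whose replicate 2 region does overlap a negative-control region. In the replicate 1 list the medians were 4.55 (quartiles 3.85 and 5.25) and 6.65 (quartiles 5.60 and 8.39), and 797 members, or 4.29%, were above the median of the other regions. Members in turn stood above the replicate 1 regions with no partner, which had a median fold of 3.85, although 5230 members (28.2%) were at or below that value. Median −log10 q of members was 8.47 in replicate 1 and 8.14 in replicate 2.

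**Figure D2:**
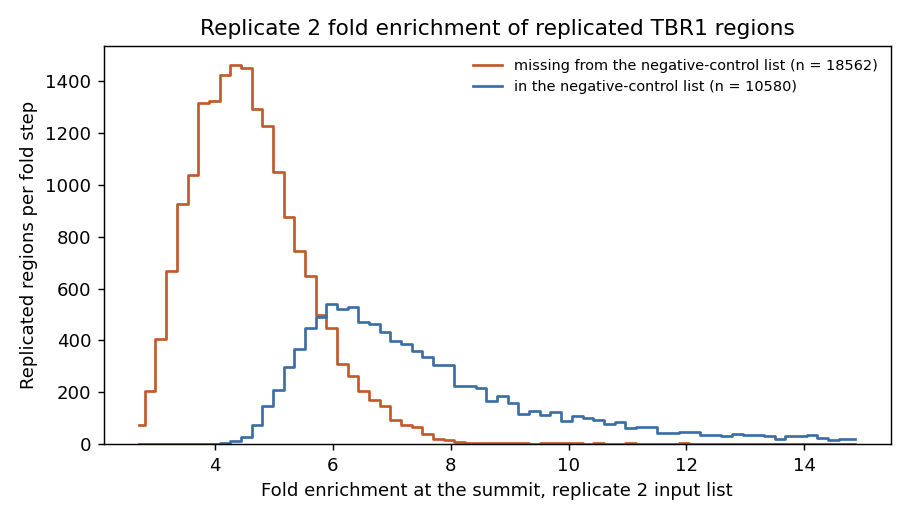
Number of replicated regions (vertical axis) at each step of the fold enrichment of the replicate 2 input list (horizontal axis), for 18562 regions missing from the negative-control list and 10580 regions in it. The curves cross between 5.80 and 5.98, and 2 members and 418 other regions above a fold of 15 are not drawn.

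The precision of a single member is limited by these small pileups. A pileup of 25 fragments, the members' median in replicate 1, has an exact Poisson 95% interval of 16.2 to 36.9 fragments, and the 24 fragments of replicate 2 one of 15.4 to 35.7. These intervals cover counting error only, and not differences between samples. They also take each fragment as a separate molecule, which PCR copies of a fragment are not. Over their backgrounds both medians came to 5.30 and 5.31, with intervals of 3.43 to 7.82 and 3.40 to 7.90. For 18467 members (99.5%) the intervals of the 2 replicates overlapped. The same held for 10561 of 10580 other replicated regions (99.8%), so this overlap does not set members apart. Of the remaining members, 2 were higher in replicate 1 and 93 higher in replicate 2.

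Below a certain height every replicated region was a member. Up to a pileup of 20 fragments in replicate 2 (fold 3.80), none of the replicated regions was in the negative-control list. The lowest summit of that list has a pileup of 24 fragments, an input fold of 4.53 and a negative-control fold of 3.72. Of the members, 8840 (47.6%) had a lower summit than this in replicate 2, as did 17 of the other replicated regions. The remaining 9722 members (52.4%) reached it. At 31 fragments (fold 5.80) the replicated regions were divided almost evenly, with 499 members and 490 others. At 40 fragments (fold 7.43) there were 67 members and 361 others.

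Up to 43 fragments in replicate 2, members were the narrower of the regions of equal height. At every pileup from 21 to 43 fragments their median replicate 2 width was below that of the others. At 31 fragments the median width of the replicate 2 input region was 555 bp for members and 1019 bp for the others. At 25 fragments it was 609 against 1082.5 bp, and at 40 fragments 521 against 882 bp. From 44 to 50 fragments, where each pileup had 4 to 8 members, the order was the opposite, with 2000 against 876 bp at 44 fragments and 852 against 780 bp at 45. Above 45 fragments, all members belong to the 372 described below, which have a replicate 2 region that does overlap a negative-control region. Their widths there are thus not widths of regions missing from that list. Every list has a narrowest region of 350 bp. At the 10295 places where 1 input region matched 1 negative-control region, the negative-control region lay inside the input region and was narrower in all 10295, with a median width of 499 against 901 bp.

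The share of members was also counted by height and width together. Of 643 replicated regions with 30 to 34 fragments and a replicate 2 width under 500 bp, all 643 were members. At the same height, 69.7% of 1551 regions of 500 to under 750 bp were members, 20.2% of 925 regions of 750 to under 1000 bp and 16.2% of 1573 regions of 1000 bp or more. At 35 to 39 fragments, 214 of 224 regions under 500 bp were members, against 12 of 558 regions of 750 to under 1000 bp and 80 of 1046 regions of 1000 bp or more. These counts include the 372 members whose replicate 2 region, with a median width of 1813 bp, does overlap a negative-control region.

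**Figure D3:**
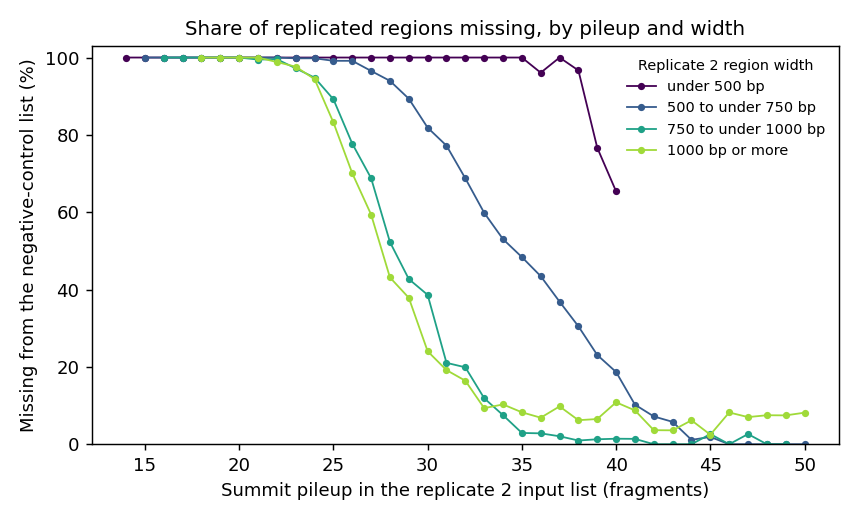
Percentage of replicated regions missing from the replicate 2 negative-control list (vertical axis) at each summit pileup in fragments (horizontal axis), in 4 classes of replicate 2 region width, for pileups of up to 50 fragments and points of 20 or more regions. At 35 fragments the share is 100% of regions under 500 bp and 48.4% of those of 500 to under 750 bp.

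Most members were single, compact peaks. Their median width was 520 bp in replicate 1 and 546 bp in replicate 2, against 866 and 924 bp for the other replicated regions. A width of 1000 bp or more in replicate 1 was found in 7.77% of members and 38.1% of the others. Members held 1 summit in both replicates in 15405 cases (83.0%), against 69.1% of the others. All members together covered 11141966 bp in replicate 1, or 51.6% of the length of the replicated regions.

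The rule used the coordinates of the regions and not their summits. The distance between summits is still not independent of the rule, since it depends on where the regions lie and how wide they are. The summits of the 2 replicates lay a median of 57 bp apart in members and 39 bp in the other regions, within 50 bp of each other in 46.0% and 58.2%. This order turned around at like height. Among regions with 1 summit in both replicates and 30 to 34 fragments in replicate 2, the median distance was 30 bp for 1879 members and 51 bp for 1505 others, with 71.9% and 49.4% within 50 bp. At 25 to 29 fragments it was 42 against 75 bp, and at 35 to 39 fragments 23 against 38 bp. Members of 14 to 19 fragments, where there are no others, had a median distance of 89 bp. Members are the narrower regions at each of these heights, so width moves with this difference, and its part in it was not tested.

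Replicate 1 followed the same order at like height, with smaller gaps. Among regions of 30 to 34 fragments in replicate 2, the median replicate 1 fold was 5.25 for 2166 members (quartiles 4.55 and 6.12) and 5.77 for 2526 others (quartiles 5.07 and 6.47). At 25 to 29 fragments it was 4.72 against 5.25, and at 35 to 39 fragments 5.95 against 6.30. The quartile ranges of the 2 sets overlapped at each of these heights. Members lie toward the lower end of each class: their share fell from 59.2% at 30 fragments to 33.2% at 34. At single pileups the medians were 5.25 against 5.60 at 31 fragments, and 6.12 in both sets at 36. The 372 members described below, low in replicate 1 and high in replicate 2 by their medians, were not left out. Median replicate 1 widths at 30 to 34 fragments were 525 bp for members and 957 bp for the others.

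Across members, replicate 1 and replicate 2 fold enrichments had a Pearson r of 0.45 and a Spearman rho of 0.48 (n = 18562 regions, which share their 2 libraries). Across the other replicated regions r was 0.92 and rho 0.76 (n = 10580). The members' range of folds is narrower, because the rule leaves out high regions, so these coefficients are not comparable. The fold was higher in replicate 1 for 52.8% of members. Over its background, the pileup was at least 2 times higher in replicate 1 for 14 members and in replicate 2 for 136.

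**Figure D4:**
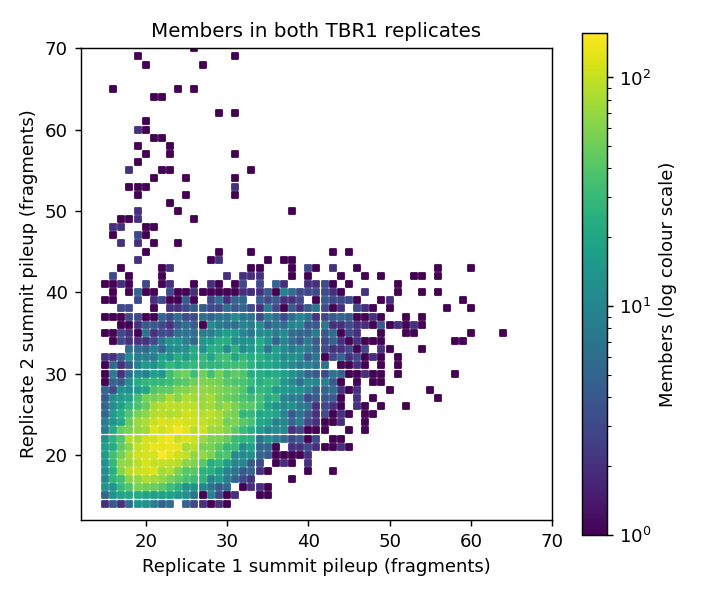
Summit pileup of members in replicate 1 (horizontal axis) and replicate 2 (vertical axis), both in fragments, coloured by the number of members at each pair of values on a log scale; 6 members above 70 fragments are not drawn. Of the members, 96.7% lie between 15 and 40 fragments in both replicates, and a sparse column of members is low in replicate 1 and high in replicate 2.

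A small group of members sat beside a stretch that is in the negative-control list. For 372 members (2.0%) the replicate 2 input region does overlap a negative-control region, but outside the stretch that the replicate 1 region covers. They include 130 of the 136 members that were at least 2 times higher in replicate 2. Their median fold was 3.67 in replicate 1 and 6.52 in replicate 2, their replicate 2 regions were 1813 bp wide with 2 summits (medians), and the summits of the replicates lay 967 bp apart. The highest replicate 2 fold of any member, 27.9, belongs to this group. In the 18190 members without them the highest replicate 2 fold was 8.33, the median stayed at 4.53 and r rose from 0.45 to 0.55.

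The edge of the rule can be seen in single regions. The member closest to a negative-control region, chr4:133053549-133053899, ended 11 bp from it, with a fold of 4.02 in replicate 1 and 6.89 in replicate 2. The next, chr19:47142531-47143241, was 18 bp away, with folds of 4.20 and 6.16. On the other side, chr1:97210488-97210841 was left out of the members by an overlap of 4 bp, with folds of 2.97 and 6.34, and chr10:59078581-59079101 by one of 16 bp, with folds of 4.55 and 7.07. Only 32 members lay within 100 bp of a negative-control region, and 25 other replicated regions shared under 100 bp with one.

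The members highest in replicate 1 were sharp peaks with closely placed summits. As counted above, few regions of 750 bp or more with 35 to 39 replicate 2 fragments were members. Narrowness at such heights thus goes with how the members were chosen and is not a separate result. The highest was chr3:119365259-119365865, 607 bp wide, with a fold of 11.4 (64 fragments) in replicate 1 and 6.52 (35 fragments) in replicate 2 and summits 19 bp apart. The 3 members next in height each had 60 fragments in replicate 1. They are chr11:23693690-23694238 with 43 fragments in replicate 2, chr2:107878758-107879327 with 38 and chr6:81338389-81338972 with 35. In these 4 members the replicate 2 region was 469 to 583 bp wide, and the summits of the replicates lay 14 to 19 bp apart. The fifth, chr1:75835874-75836464, had 59 and 34 fragments.

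Ranked by the lower of both folds, chr6:62667051-62667576 came first, with 45 fragments in each replicate, folds of 8.04 and 8.33 and widths of 526 and 508 bp. The next 3 shared a lower fold of 7.97. They are chr11:23693690-23694238, chr4:48956111-48956647 with 46 and 43 fragments, and chr9:11954966-11955527 with 56 and 43 fragments, which lies 516850 bp from the nearest negative-control region. The highest members of the other chromosomes were of the same kind, such as chr5:34311362-34311892 with 49 and 42 fragments and summits 3 bp apart, and chr14:41852784-41853258 with 43 and 45 fragments and summits 2 bp apart. By this rank, the highest member of each chromosome was 471 to 578 bp wide in replicate 1. The lowest members had 15 fragments in replicate 1, a fold of 2.80, among them chr1:55259008-55259357, which also had the lowest pileup of replicate 2, 14 fragments.

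Some members were broad without being among the highest. In replicate 1, 1443 members were 1000 bp wide or more. Of the replicated regions of that width in replicate 2, 917 of 937 with at most 24 fragments were members, and 874 of 1517 with 25 to 29. Higher up, members were 255 of 1573 at 30 to 34 fragments, 80 of 1046 at 35 to 39 and 117 of 1727 at 40 or more. Height and width here are those of the replicate 2 region. For the 372 members described above, that region does overlap a negative-control region, with a median width of 1813 bp. These counts do not separate them, so they are not counts of broad, high regions missing from that list. The widest member in replicate 1, chr16:42337720-42341067, spanned 3348 bp with 5 summits in replicate 1 and a highest fold of 5.60, but met a replicate 2 region of 965 bp with 1 summit and a fold of 5.44. By contrast chr6:103460260-103462960 was 2701 bp wide in replicate 1 and 2662 bp in replicate 2, with folds of 5.60 and 5.07. Likewise chr10:79446149-79448829 spanned 2681 and 2411 bp, with folds of 6.30 and 5.44, and chr14:103380191-103382810 spanned 2620 and 2347 bp, with folds of 5.95 and 5.44. The highest summits of these broad regions stood below those of the narrow members above. They were still above the members' median folds of 4.55 in replicate 1 and 4.53 in replicate 2. A fold is that of the highest summit, so the level along each stretch is not shown.

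Members were spread over the autosomes in near proportion to the replicated regions. Their share ran from 60.9% of 1942 replicated regions on chromosome 11 to 66.0% of 1168 on chromosome 14. Chromosome 2 held the most members, 1533, and chromosome 19 the fewest, 497. The median replicate 2 fold of members was 4.53 on 18 of 19 chromosomes and 4.35 on chromosome 11. Chromosome X is outside the rule. There 238 of 290 replicated regions (82.1%) were missing from the negative-control list.

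**Figure D5:**
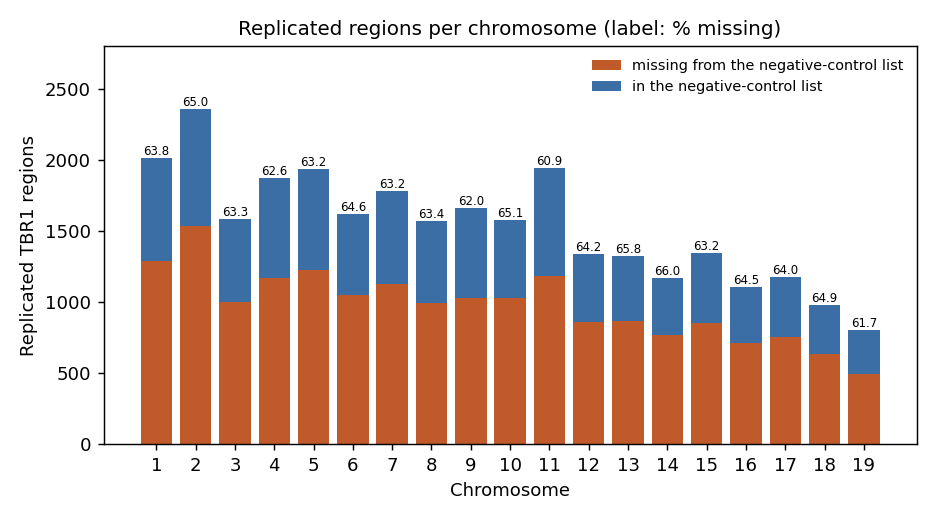
Number of replicated TBR1 regions on each of chromosomes 1 to 19, divided into those missing from the replicate 2 negative-control list and those in it. The number above each bar is the percentage missing, from 60.9 on chromosome 11 to 66.0 on chromosome 14.

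Members lay among the other replicated regions along the chromosomes. The region that followed a member was a member in 64.2% of 18552 cases, and the region that followed another replicated region was a member in 62.8% of 10571 cases. The gap from a member to the nearest other member had a median of 28860.5 bp, and that to the nearest replicated region in the negative-control list one of 54876 bp. Within 5000 bp, 19.2% of members had another member and 10.2% a replicated region of the negative-control list. Within 100000 bp the figures were 83.4% and 67.4%. The other replicated regions were likewise nearer to a member than to another of their own set, with medians of 31283 and 56589 bp. Within 5000 bp, 15.9% of them had a member and 8.66% another of their own set. Being nearer to members was thus common to both sets. Members are also the larger set, and the part of their number in this difference was not tested.

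Counted in windows of 1000000 bp, members occurred in 2322 of the 2353 windows that hold a replicated region, with a median of 7. Their number per window rose and fell with that of the other replicated regions (Pearson r 0.65 over 2353 windows, which differ in how much of each window can be read). The fullest window, chr11:98000001-99000000, held 44 members and 17 others. In the 393 windows with at least 20 replicated regions, the share of members ran from 30.8% to 95.7%, with a median of 63.0%. The highest share was in chr7:146000001-147000000, with 22 members and 1 other, and the lowest in chr6:124000001-125000000, with 8 members and 18 others. In the first the median replicate 2 fold of all replicated regions was 4.71, and in the second it was 5.71.

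Unbroken runs of members, which are 63.7% of the replicated regions, were counted along each chromosome. With such a share, runs of members can be longer than runs of the others, and no run was tested. The longest held 26 members in a row over 1121904 bp, chr7:146100801-147222704, with median folds of 4.11 in replicate 1 and 4.53 in replicate 2. It overlaps the window with the highest share of members given above, so both describe the same place. The most compact of the 5 longest runs held 18 members within 153240 bp, chr13:83861573-84014812, with median folds of 3.93 and 4.26. The longest run of the other replicated regions was 12 within 65381 bp, chr11:3031627-3097007, at median folds of 7.61 and 7.70. The farthest member from any negative-control region was chr7:11080024-11080855, at 1982635 bp, with folds of 4.37 and 4.35.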

How the data were processed

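The 6 ChIP samples of mouse cortex were sequenced, and 4 peak lists were analysed here. Reads were trimmed with Trim Galore 0.4.2, aligned with BWA 0.7.16a and given to MACS2 2.1.0 with the build mm9, per the submitters' processing notes. Further parameters were not stated. The peak names deposited by the authors mark calling with no model, and give 1 replicate and 1 control per list. Each summit has a deposited score, a fold enrichment (a deposited ratio over the caller's background), and a deposited −log10 p and −log10 q. The score is 10 times the −log10 q, rounded down. Total read counts are unknown from the lists.

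Summits with equal region coordinates were merged into 1 region, which took the values of its highest summit. Overlap meant 1 bp or more, a member's replicate 2 partner was the overlapping region with the highest fold, and coordinates count from 1. More than 1 replicate 2 region was overlapped by 463 members, and 410 replicate 2 regions were shared by 2 or more members. The replicate 2 values of members can thus count a shared region more than once. Python 3.11.15, pandas 2.3.3 and scipy 1.17.1 were used, and overlaps and gaps were tested on simulated regions against bedtools 2.31.1. No test across regions was made: regions of 1 list are not replicates. Named regions are drawn from those highest, lowest, widest, with most summits, nearest to and farthest from the negative-control list, and highest on their chromosome. The members and these rules were chosen with earlier results of these data known. The alternatives were an overlap of 50% of the narrower region, 2 stricter limits on −log10 q, a distance of 1000 bp, replicate 2 as the starting list and the mean over summits.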

Additional observations from a re-analysis of the deposited data

How the results depend on the processing

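The number of member regions stayed within 1.5 times its main value of 18562 under 5 of 6 alternatives, from 13514 with a −log10 q of at least 5 in both input lists to 27313 without replicate 1, where replicate 2 regions alone were counted. With a −log10 q of at least 10 it dropped to 3249. The share of replicated regions that were members, 63.7%, was 61.2% where no negative-control region lay within 1000 bp, 56.3% with a −log10 q of at least 5 and 26.4% with at least 10. Without replicate 1 no region is replicated, and the 27313 regions are 72.1% of all 37858 replicate 2 input regions on chromosomes 1 to 19. The stricter limits remove low regions, which members are by construction. The share stayed at 63.3% with an overlap of 50% of the narrower region and at 63.7% with replicate 2 as the starting list. The members' median fold in the replicate 1 negative-control list was 4.55, and 4.37 with the mean over summits. Leaving out replicate 1, and all alternatives for the share, were chosen after seeing the data. Leaving out replicate 2 gave no value, since the rule needs it. Planned counts of gene starts, motifs and genes changed in RNA were not run, as they need an mm9 genome or annotation. No paired analysis was possible because no result comes from a test and each replicate has a single list per control. At a median pileup of 24 or 25 fragments, counting error alone limits what a single region shows.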

Other observations

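On chromosome X, outside the rule, 367 regions of the replicate 1 input list were found, and 290 of them had a partner in replicate 2. Of these 290, 238 were missing from the replicate 2 negative-control list, a share of 82.1% against 63.7% on chromosomes 1 to 19. The sex of the mice and the number of animals per sample are not stated in the labels, and the difference was not tested.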
